A study of Mus musculus with 6 samples.

Results

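The transcripts of 10 matricellular genes of wound repair were followed in single cells of the mouse Achilles tendon before and after tenotomy. The members are *Tnc*, *Tnn*, *Postn*, *Thbs1*, *Thbs2*, *Sparc*, *Ccn1*, *Ccn2*, *Ccn3* and *Fn1*, taken by gene symbol from a list, and each symbol matched 1 of the 33696 genes in the count matrices. Every mouse carried *Gli1*-CreERT2 and the Ai9 reporter and received tamoxifen, which marks cells in which the *Gli1* promoter was active at that time, together with their progeny. Reporter-positive (Gli1+) and reporter-negative (Gli1-) cells were sorted from uninjured tendon and from tendon at 7 and 21 days post-injury (dpi), the injury being repeated clamping followed by a cut through the tendon. This gave 6 libraries, 1 for each sort at each time, with 8 mice per time point and 24 mice in all. The mice of a time point are taken as pooled, although the sex-linked UMIs given below do not match an equal mix of males and females. The age of the mice is not given in the sources used here. The Gli1- libraries hold all cells without the reporter, including any in which the allele did not recombine. No condition was replicated, so every difference below is between single libraries, without a p-value, and every interval is a 95% interval that covers counting error only.

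Matricellular proteins are secreted into the extracellular matrix but act mainly on cells, through integrins, syndecans and other receptors, rather than as load-bearing fibres. Many are abundant in developing tissue, scarce in resting adult tissue and made again in wounds, where fibroblasts use them to loosen adhesion, migrate, trap growth factors and order new collagen. In tendon, tenascin-C is long known at sites under compression or repair, periostin and SPARC act in collagen assembly, and the CCN proteins are read as outputs of mechanical and TGF-β signalling. Fibronectin forms the first fibrillar scaffold of a wound, on which the others are laid down.

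RefSeq promoters (GRCm38.p6, 250 bases before to 50 after an annotated start) were matched for 6 members; *Thbs1*, *Ccn2*, *Ccn3* and *Fn1* had no entry. Shown are the 3 members with the largest ratios of injured over uninjured tendon, *Tnc*, *Tnn* and *Postn*, and, for contrast, *Ccn1*, whose level was nearly even over time. For *Tnc* and *Postn*, which have 2 entries each, the start further along the gene is shown. Sequences run 5′ to 3′ on the gene's own strand, and capitals mark matches, on either strand, to 4 motifs, namely TATAAA, the TEAD core GGAATG, the AP-1 site TGANTCA and the SMAD palindrome GTCTAGAC.
Tnc, chr4:64046887-64047186, minus strand: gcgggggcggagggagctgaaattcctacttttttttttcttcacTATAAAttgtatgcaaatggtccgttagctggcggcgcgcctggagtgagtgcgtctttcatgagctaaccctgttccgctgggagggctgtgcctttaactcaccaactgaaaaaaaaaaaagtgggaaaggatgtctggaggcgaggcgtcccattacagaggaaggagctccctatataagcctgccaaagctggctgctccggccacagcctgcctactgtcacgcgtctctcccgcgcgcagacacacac
Tnn, chr1:160153526-160153825, minus strand: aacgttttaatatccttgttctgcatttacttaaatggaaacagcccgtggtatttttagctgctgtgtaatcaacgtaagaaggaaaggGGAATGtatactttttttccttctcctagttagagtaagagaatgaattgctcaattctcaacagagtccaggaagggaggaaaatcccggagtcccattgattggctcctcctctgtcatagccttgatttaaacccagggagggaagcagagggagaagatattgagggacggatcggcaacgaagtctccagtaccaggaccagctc
Postn, chr3:54360857-54361156, plus strand: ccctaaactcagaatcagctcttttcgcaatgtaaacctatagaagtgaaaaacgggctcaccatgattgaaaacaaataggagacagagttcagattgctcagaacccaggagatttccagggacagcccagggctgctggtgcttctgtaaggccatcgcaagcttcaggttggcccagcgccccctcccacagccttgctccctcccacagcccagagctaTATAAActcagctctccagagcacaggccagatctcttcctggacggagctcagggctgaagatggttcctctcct
Ccn1, chr3:145649936-145650235, minus strand: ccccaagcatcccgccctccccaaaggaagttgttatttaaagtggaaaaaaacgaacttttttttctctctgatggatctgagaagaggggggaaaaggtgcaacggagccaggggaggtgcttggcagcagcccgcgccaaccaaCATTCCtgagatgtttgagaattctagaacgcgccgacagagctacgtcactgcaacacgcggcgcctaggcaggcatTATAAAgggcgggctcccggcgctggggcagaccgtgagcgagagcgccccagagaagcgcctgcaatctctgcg

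A TATAAA match began 26 bases before the start in *Postn* and 25 bases before it in *Ccn1*, and 205 bases before the shown start in *Tnc*. GGAATG began 160 bases before the start in *Tnn* and 103 bases before it, on the opposite strand, in *Ccn1*. The letters TGANTCA and GTCTAGAC were in none of these windows. Of 32851 promoters of this length, 13.6% held TATAAA, 14.7% GGAATG, 7.81% TGANTCA and 0.213% GTCTAGAC. These matches are a description of the letters only.

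After filtering and removal of likely doublets, 7057 to 10882 cells per library remained, with 53589094 to 107739968 unique molecular identifiers (UMIs, each standing for 1 captured transcript) and median depths of 4297 to 9770 UMIs per cell. Clustering without the 10 members or the marker genes placed 2466, 6994 and 8057 Gli1+ cells and 5766, 7972 and 7553 Gli1- cells, in the order uninjured, 7 and 21 dpi, in mesenchymal clusters, on which the comparisons rest. *Gli1* itself was at 13.4, 2.15 and 4.24 UMIs per 1000000 UMIs of the class (CPM) in the Gli1+ and at 8.90, 2.45 and 4.38 CPM in the Gli1- mesenchymal cells. By the labels each time point had as many male as female mice, which the libraries did not show. Cells with UMIs of Y-linked genes but not of *Xist* were 15.0% and 70.9% of the uninjured and 7 dpi Gli1+ cells and 59.5% and 70.5% of the Gli1- cells, against 0.112% and 0.0552% at 21 dpi, where in turn 92.7% and 90.6% had UMIs of *Xist* alone. In uninjured tendon 68.8% of Gli1+ cells but none of 10882 Gli1- cells were female-marked in this way, so these 2 libraries did not hold the same mix of mice, and their comparison is also one between animals. The uninjured Gli1+ library, the baseline of every Gli1+ ratio, stood apart in another way, with 3777 of its 7057 cells (53.5%) in immune clusters, against at most 0.258% in any other library; these cells are outside the mesenchymal sums. In mesenchymal cells, the summed level of 8 epidermal markers reached 36.6, 2293 and 213 CPM after the Gli1+ sort, compared with 14.0, 34.6 and 42.0 CPM after the Gli1- sort, and that of 8 myeloid markers was 6.01 to 51.1 CPM in all. Their part in the results below was not tested. At most 33 barcodes were shared by any pair of libraries.

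The 3 genes that differed most with injury were the tenascins *Tnc* and *Tnn* (tenascin-W) and *Postn* (periostin), which modulate fibroblast adhesion and collagen cross-linking. All 3 were near their lowest in uninjured mesenchymal cells, highest at 7 dpi and intermediate at 21 dpi, in both sorts. *Tnc* was at 142 CPM (137 to 147), 2005 CPM (1995 to 2015) and 805 CPM (799 to 812) in Gli1+ cells that were uninjured, at 7 dpi and at 21 dpi. In Gli1- cells it was at 25.9 CPM (24.3 to 27.6), 1723 CPM (1715 to 1731) and 845 CPM (838 to 851). The uninjured libraries were thus the lowest of both sorts, and the 7 dpi libraries lay close together. The log2 ratio of 7 dpi over uninjured was 3.82 (3.77 to 3.87) in Gli1+ cells and 6.06 (5.97 to 6.15) in Gli1- cells.

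*Tnn*, best known from developing bone and periosteum, gave few UMIs before injury. It gave 127 UMIs among 2466 uninjured Gli1+ cells and 109 among 5766 uninjured Gli1- cells, which is 5.42 and 2.96 CPM. Uninjured Gli1+ mesenchymal clusters with at least 50 cells gave 29 (cluster 1), 18 (cluster 5), 3 (cluster 7), 2 (cluster 6) and 0 UMIs (cluster 16). Most of the 127 UMIs thus came from smaller clusters, so the uninjured Gli1+ level and its ratios rest on few cells. At 7 dpi *Tnn* was at 389 and 352 CPM in the 2 sorts, and at 21 dpi at 176 and 175 CPM. Its log2 ratios of 7 dpi over uninjured, 6.17 (5.92 to 6.43) and 6.90 (6.63 to 7.18), were the largest of the 10 members in each sort. *Postn* went from 248 CPM in uninjured Gli1+ cells to 3422 CPM at 7 dpi and 1712 CPM at 21 dpi, and Gli1- cells had 103, 3460 and 1507 CPM. Its log2 ratios of 7 dpi over uninjured were 3.79 (3.75 to 3.83) and 5.07 (5.03 to 5.12).

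*Sparc*, a collagen-binding glycoprotein needed for fibril assembly, and *Fn1*, fibronectin, were also higher after injury and stayed high at 21 dpi. *Sparc* was at 4085, 10393 and 13456 CPM in Gli1+ and at 2764, 11634 and 12761 CPM in Gli1- mesenchymal cells. The log2 ratio of 21 dpi over uninjured was 1.72 (1.71 to 1.73) and 2.21 (2.20 to 2.22), and 21 dpi was the highest time point in both sorts. *Fn1* was at 1020, 2493 and 2288 CPM in Gli1+ cells and at 632, 2636 and 2350 CPM in Gli1- cells. Its log2 ratios over uninjured were 1.29 and 1.17 at 7 and 21 dpi in Gli1+ cells and 2.06 and 1.89 in Gli1- cells, so both injured libraries of a sort lay close together and above the uninjured one.

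The thrombospondins, which bind CD36 and CD47 and restrain angiogenesis, did not move as a pair. *Thbs2* was at 268, 668 and 469 CPM in Gli1+ cells and at 181, 644 and 397 CPM in Gli1- cells, with its highest level at 7 dpi in both sorts and log2 ratios of 7 dpi over uninjured of 1.32 (1.28 to 1.35) and 1.83 (1.79 to 1.86). *Thbs1*, an activator of latent TGF-β, was at 330, 340 and 440 CPM in Gli1+ cells and at 180, 286 and 360 CPM in Gli1- cells. The Gli1+ ratios of *Thbs1* over uninjured, 0.04 (0.01 to 0.08) at 7 dpi and 0.41 (0.38 to 0.45) on day 21, stayed below the fold of 0.58 on the log2 scale that the study's methods use, whereas the Gli1- ratios were 0.67 (0.63 to 0.71) and 0.9997 (0.96 to 1.04).

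Of the CCN proteins, secreted cysteine-rich regulators of adhesion and growth factor signalling, *Ccn2* and *Ccn3* were lower at 7 dpi and *Ccn1* was nearly even. *Ccn2* (connective tissue growth factor) was at 646, 229 and 477 CPM in Gli1+ cells and at 318, 180 and 374 CPM in Gli1- cells, lowest at 7 dpi in both sorts, with log2 ratios of 7 dpi over uninjured of -1.49 (-1.53 to -1.46) and -0.82 (-0.85 to -0.78). *Ccn3*, which often opposes *Ccn2* in fibroblasts, was at 203, 38.1 and 188 CPM in Gli1+ cells and at 109, 55.3 and 182 CPM in Gli1- cells. Its log2 ratio of 7 dpi over uninjured was -2.41 (-2.48 to -2.34) in Gli1+ cells, the lowest among the members, and -0.98 (-1.04 to -0.92) in Gli1- cells. *Ccn1* (Cyr61) was nearly even, at 616, 707 and 762 CPM in Gli1+ cells and at 590, 631 and 630 CPM in Gli1- cells.

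**Figure D1:**
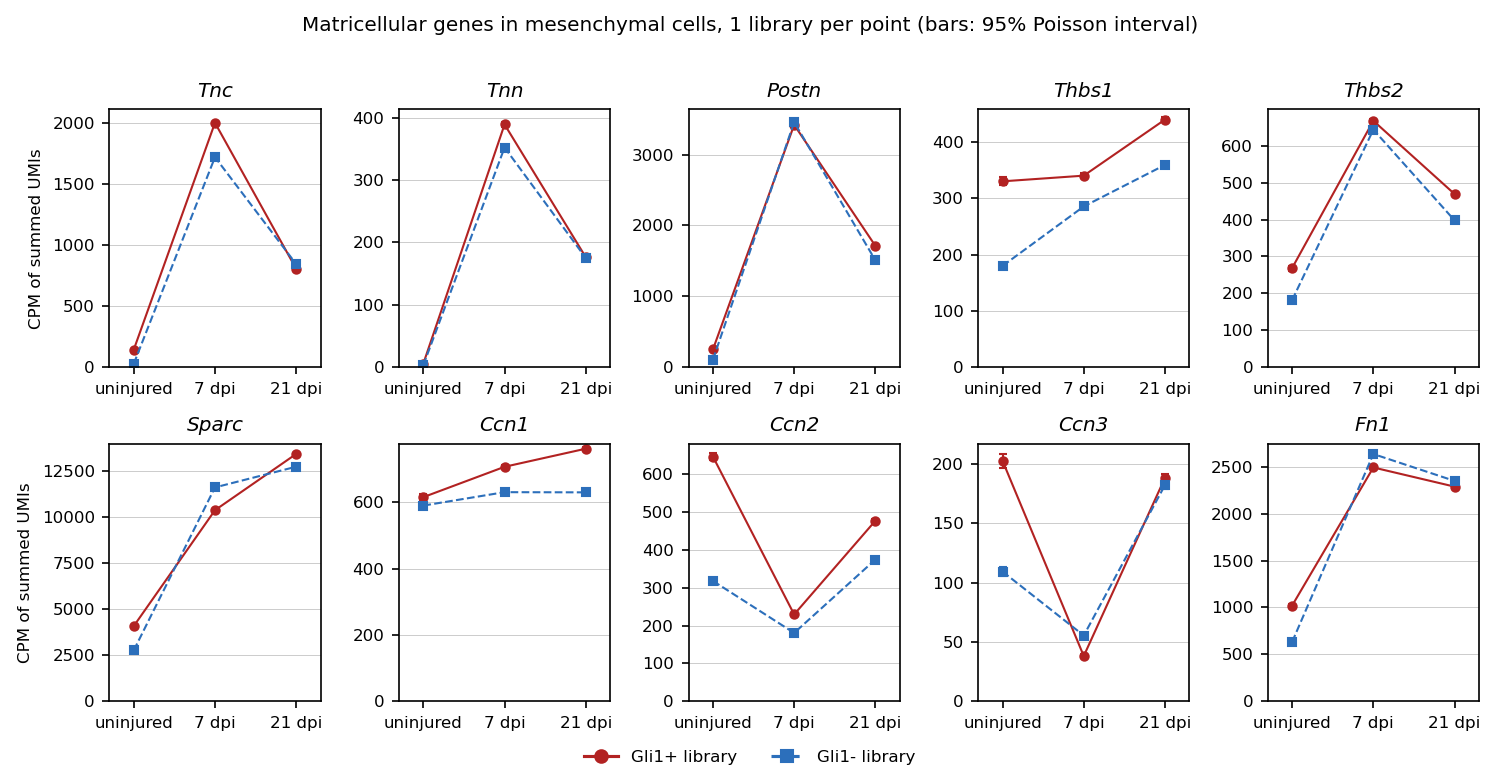
Level of each matricellular gene, in CPM of summed UMIs from 0, in mesenchymal cells of uninjured tendon and of tendon at 7 and 21 dpi; circles are Gli1+ and squares Gli1- libraries, 1 library per point, and bars are 95% Poisson intervals. *Tnc*, *Tnn* and *Postn* peak at 7 dpi, *Sparc* is highest at 21 dpi (13456 and 12761 CPM), and *Ccn2* and *Ccn3* dip at 7 dpi in both sorts.

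*Ccn1* and *Ccn2* are themselves induced within minutes of serum or mechanical stimulation, and the early response genes that tissue dissociation can raise differed between the same libraries. The summed level of 10 such genes, among them *Fos*, *Junb* and *Egr1* and chosen after the data were seen, was 27867, 12752 and 16952 CPM for Gli1+ mesenchymal cells, compared with 32480, 13681 and 15203 CPM for Gli1- ones. At 7 dpi over uninjured 8 of the 10 in Gli1+ and 9 of the 10 in Gli1- cells were lower past the fold, as were 33.3% and 27.1% of all genes. Their part in the levels of *Ccn1* and *Ccn2* was not tested.

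Counted against all genes with at least 50 UMIs in the libraries compared, a filter that all 10 members passed, 6 of the 10 members were higher past a log2 ratio of 0.58 at 7 dpi in Gli1+ cells, where 22.1% of 16123 genes were higher, and 2 were lower, where 33.3% were. The 6 were *Tnc*, *Tnn*, *Postn*, *Thbs2*, *Sparc* and *Fn1*. In Gli1- cells 7 were higher, *Thbs1* being added, where 23.5% of 16227 genes were, and 2 were lower, where 27.1% were. The *Thbs1* ratio there was -0.46 within clusters shared by both libraries and -0.21 against the uninjured Gli1+ library. At 21 dpi over uninjured the same 6 members were higher in Gli1+ cells (14.5% of 15735 genes) and 8 in Gli1- cells (20.9% of 15811 genes), *Ccn3* being the eighth at 0.74 (0.69 to 0.79). Of these 8, *Thbs2* was at -0.59 within clusters shared by both libraries, and against the uninjured Gli1+ library *Ccn3* was at -0.15 and 5 of the 8 stayed higher past the fold. No share of all genes is given for that baseline, so this count is not to be read as a result about the members. None was lower past the fold at 21 dpi in either sort, against 36.3% of all genes in Gli1+ and 28.0% in Gli1- cells. The median log2 ratio of the members was 1.30 at 7 dpi in Gli1+ cells, beside -0.18 for all genes tested.

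The ratios depend in part on scaling. TMM factors, which centre most genes, add 0.30 and 0.46 to every Gli1+ log2 ratio at 7 and 21 dpi over uninjured and 0.10 and 0.18 to the Gli1- ratios. Under them the Gli1+ ratios of *Ccn2* and *Ccn3* at 21 dpi over uninjured changed sign, from -0.44 and -0.11 to 0.02 and 0.35. *Thbs1* and *Ccn1* passed the fold, so that 8 members were higher in place of 6, where 29.6% of all genes were higher in place of 14.5%. The same factors moved the share of higher genes among all genes past the fold from 39.9% to 57.0% and from 28.5% to 61.3% for Gli1+ cells at 7 and 21 dpi over uninjured, from 34.3% to 49.4% for Gli1+ cells at 21 over 7 dpi, from 42.7% to 55.2% for Gli1- cells at 21 dpi over uninjured, and from 69.5% to 48.0% for Gli1+ over Gli1- cells of uninjured tendon. No other ratio of a member over uninjured changed sign with them.

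Set against 7 dpi, *Tnc*, *Tnn* and *Postn* were lower at 21 dpi, with log2 ratios of -1.32, -1.14 and -0.9997 in Gli1+ cells and -1.03, -1.01 and -1.20 in Gli1- cells, and *Thbs2* was lower at -0.51 and -0.70. That is 3 members past the fold in Gli1+ cells, where 20.1% of all genes were lower, and 4 in Gli1- cells, where 15.0% were. *Ccn2* and *Ccn3* were the only members higher past the fold, at 1.06 (1.03 to 1.08) and 2.31 (2.25 to 2.36) in Gli1+ cells and at 1.05 (1.03 to 1.08) and 1.72 (1.67 to 1.76) in Gli1- cells, where 10.5% and 11.6% of all genes were higher. *Sparc*, *Ccn1*, *Fn1* and *Thbs1* lay between -0.17 and 0.37 on the log2 scale in both sorts. Nearly all sex-marked cells were male at 7 dpi and female at 21 dpi, so these ratios cannot be told apart from sex. Make-up differed as well. Clusters high in tenocyte markers, where *Ccn2* was high, held 10.5% of Gli1+ mesenchymal cells on day 7 but 59.6% on day 21. For the Gli1- sort the share went from 4.80% to 53.5%. *Ccn2* was higher past the fold in 0 of 3 Gli1+ and 3 of 8 Gli1- clusters with at least 50 cells in both libraries. For *Ccn3* these counts were 2 of 3 and 6 of 8. The part of make-up in the pooled ratios was not tested.

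The sorts differed more before injury than afterwards, among the members as among all genes. In uninjured mesenchymal cells 7 of the 10 members were higher in the Gli1+ library past the fold, where 21.8% of 14853 genes were, and none was lower, where 9.57% were. *Tnc* stood out with 142 against 25.9 CPM, a log2 ratio of 2.45 (2.35 to 2.56), followed by *Postn* at 1.27, *Ccn2* at 1.02, *Ccn3* at 0.89, *Thbs1* at 0.88, *Tnn* at 0.87 and *Fn1* at 0.69. *Thbs2* (0.57) and *Sparc* (0.56) lay just inside the fold, and *Ccn1* was at 0.06, or at -0.19 with TMM factors. These lower every uninjured ratio between sorts by 0.25 and leave 6 members higher past the fold, without *Fn1*, where 14.9% of all genes were higher and 16.2% lower. Over all kept cells of the libraries, which are 53.5% immune in uninjured Gli1+ tendon, 1 member was higher past the fold and 1 lower, where 27.8% and 21.8% of all genes were. Of the members past the fold in mesenchymal cells, *Tnn*, *Thbs1*, *Ccn3* and *Fn1* were then below 0, at -0.10, -0.14, -0.0595 and -0.20. *Thbs2*, *Sparc* and *Ccn1* were below 0 as well, at -0.36, -0.51 and -1.01. At 7 and 21 dpi no member passed the fold in either direction, where 11.3% and 7.16% of all genes did, and the member nearest to it was *Ccn3* at 7 dpi, at -0.54 (-0.61 to -0.47), which passed it with TMM factors, at -0.59.

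The uninjured mesenchymal cells of the 2 sorts also differed in make-up. Clusters high in tenocyte markers (*Scx*, *Tnmd*, *Fmod*), called tenocyte-like, held 29.2% of them in the Gli1+ and 3.57% in the Gli1- library, and *Scx* itself was at 103 and 15.2 CPM. Tendon stem cell-like clusters, with *Tppp3*, *Ly6a* and *Pi16*, held 57.3% and 24.8%. Median depth was 8505.5 and 5782.5 UMIs per cell. Within tenocyte-like clusters alone, *Tnc* was at 335 CPM if Gli1+, compared with 298 CPM if Gli1-, and *Postn*, *Ccn2* and *Fn1* were lower in the Gli1+ library, at 477 against 870, 1672 against 2943 and 1268 against 2503 CPM. In the stem cell-like clusters *Tnc* was at 36.3 and 11.1 CPM. By cluster it was at 46.5 CPM in Gli1+ cluster 5 and 2.47 CPM in Gli1+ cluster 6 (8 UMIs). In the Gli1- sort it was at 5.67 CPM in cluster 7 and 74.5 CPM in cluster 10 (63 UMIs in 71 cells). The pooled direction thus did not hold between all of these clusters. Make-up and depth moved with the sort, and their part in its difference was not tested.

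**Figure D2:**
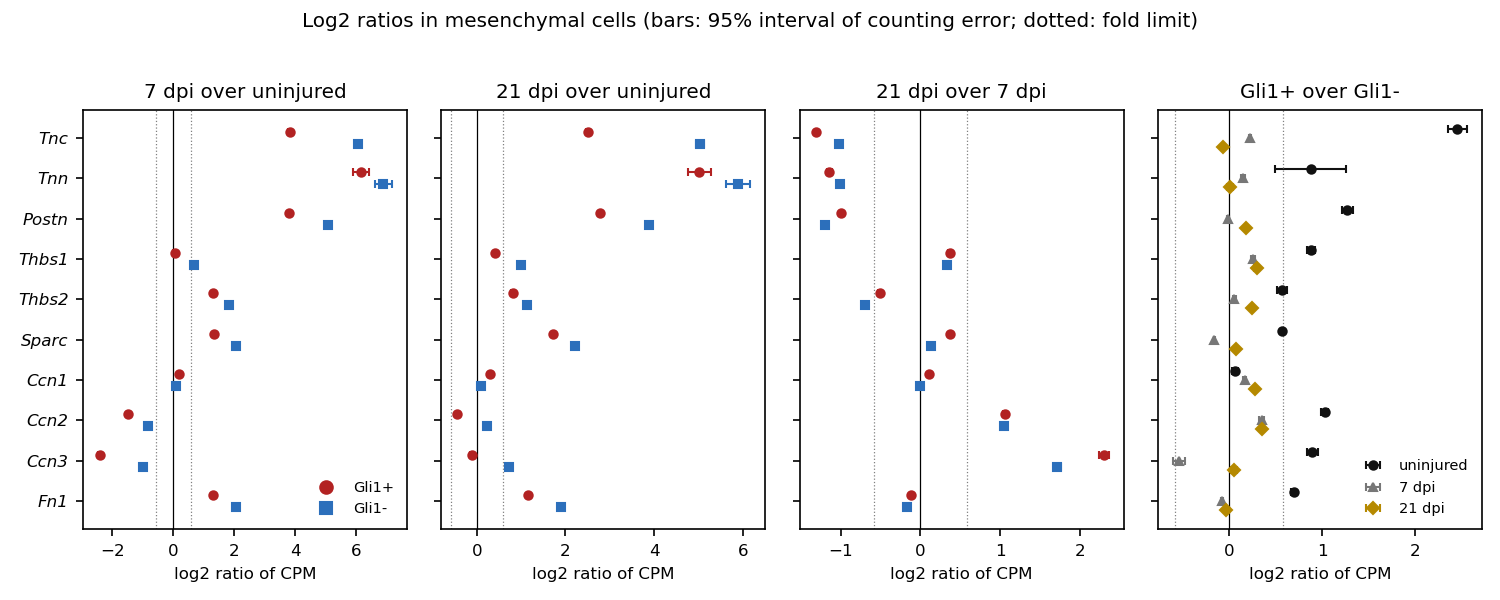
Log2 ratio of CPM in mesenchymal cells for each member: 7 dpi over uninjured, 21 dpi over uninjured and 21 over 7 dpi in Gli1+ (circles) and Gli1- (squares) cells, and Gli1+ over Gli1- at each time; bars are 95% intervals of counting error and dotted lines the fold of 0.58. The ratios over uninjured reach 6.90 for *Tnn*, and among the Gli1+ over Gli1- ratios on this scale the uninjured ones alone pass the fold.

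Sex and time were partly confounded, so ratios were also taken within cells of 1 sex. In male-marked cells of both libraries the Gli1+ ratios of 7 dpi over uninjured were 3.82 for *Tnc*, 5.51 for *Tnn*, 4.01 for *Postn*, -1.26 for *Ccn2* and -2.16 for *Ccn3*, and the Gli1- ratios were 6.21, 7.58, 5.08, -0.77 and -1.11. In female-marked Gli1+ cells the ratios of 21 dpi over uninjured were 2.58, 5.27, 2.65, -0.59 and -0.28 in the same order. These kept the sign of the pooled ratios. The 596 male-marked uninjured Gli1+ cells also kept the gap to the 4044 male-marked Gli1- cells, at 2.59 for *Tnc*. The uninjured Gli1- library held no female-marked cells and the 21 dpi library almost no male-marked ones, so their difference cannot be told apart from sex. At 7 dpi 1 of 6994 Gli1+ and 1 of 7972 Gli1- mesenchymal cells were female-marked. At 21 dpi 9 of 8057 and 3 of 7553 were male-marked. The ratios of 21 over 7 dpi therefore cannot be told apart from sex in either sort.

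Seen across mesenchymal clusters, each member had its own place. The highest *Tnc* and *Postn* levels were in the largest 7 dpi cluster of each sort, which has no cell type name here and has *Crabp1*, *Gzme* and *Kif26b* among its leading genes, at 2645 and 3835 CPM among 3554 Gli1+ cells and at 2526 and 4167 CPM among 3602 Gli1- cells. *Tnn* was at 546 and 521 CPM in the same clusters, and higher still, at 981 CPM, in 50 osteochondral-like Gli1- cells at 7 dpi. A 21 dpi cluster led by acute-phase *Saa3* had *Tnc* at 2001 CPM in Gli1+ and 1798 CPM in Gli1- cells. In tenocyte-like cells *Tnc* was at 924 and 868 CPM at 7 dpi.

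*Ccn2* was high in tenocyte-like cells. In uninjured tendon it was at 1672 CPM in Gli1+ and 2943 CPM in Gli1- tenocyte-like cells, against 280 and 200 CPM in stem cell-like cells. At 7 dpi the tenocyte-like cells had 751 and 558 CPM and at 21 dpi 640 and 513 CPM, below the uninjured level in both sorts. *Ccn1* and *Thbs1* had their highest levels of all 43 sums of 1 cluster in 1 library in the same uninjured Gli1- tenocyte-like cluster, at 1418 and 976 CPM among 189 cells. *Thbs1* in tenocyte-like cells was lower at 7 dpi, at 354 CPM after 773 CPM in Gli1+ and 301 CPM after 865 CPM in Gli1- cells, unlike its ratio over all mesenchymal cells. Most tenocyte-like cells lay in clusters 7, 13 and 1 of the Gli1+ sort and 13, 13 and 2 of the Gli1- sort at the 3 times, so these are not the same cells followed over time.

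*Ccn3* was at 321, 69.3 and 392 CPM in the stem cell-like clusters of the Gli1+ sort, and at 213, 150 and 449 CPM in those of the Gli1- sort. Tenocyte-like cells had 16.6 and 11.0 CPM of it when uninjured and 199 and 229 CPM by 21 dpi. Most stem cell-like cells lay in clusters 5, 3 and 6 of the Gli1+ and 7, 7 and 10 of the Gli1- sort at these times. They too are not the same cells followed over time. Gli1+ cluster 3 was at 67.8 CPM, the median of the 43 sums. At 21 dpi *Ccn3* was below uninjured in Gli1+ clusters 5 (187 after 198 CPM) and 6 (441 after 729 CPM) and Gli1- cluster 10 (461 after 544 CPM). In Gli1- cluster 7 it was above, at 305 after 185 CPM. *Sparc* was highest in osteochondral-like cells at 21 dpi, those with cartilage and bone markers, at 27277 CPM among 312 Gli1+ and 24696 CPM among 406 Gli1- cells, and *Fn1* was at 4051 and 3499 CPM there. *Fn1* peaked among the sums in 229 Gli1- tenocyte-like cells at 7 dpi, at 5597 CPM. Among the 6 members higher after injury in both sorts *Thbs2* had the smallest ratio of highest to median sum. Its highest sum, 810 CPM, was 2.68 times its median sum of 303 CPM. For *Fn1* that factor was 2.81, for *Sparc* 3.20 and for *Tnn* 20.7. The factor leaves out the lowest sums, which were 24.4 CPM for *Thbs2* and 1452 CPM for *Sparc*.

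**Figure D3:**
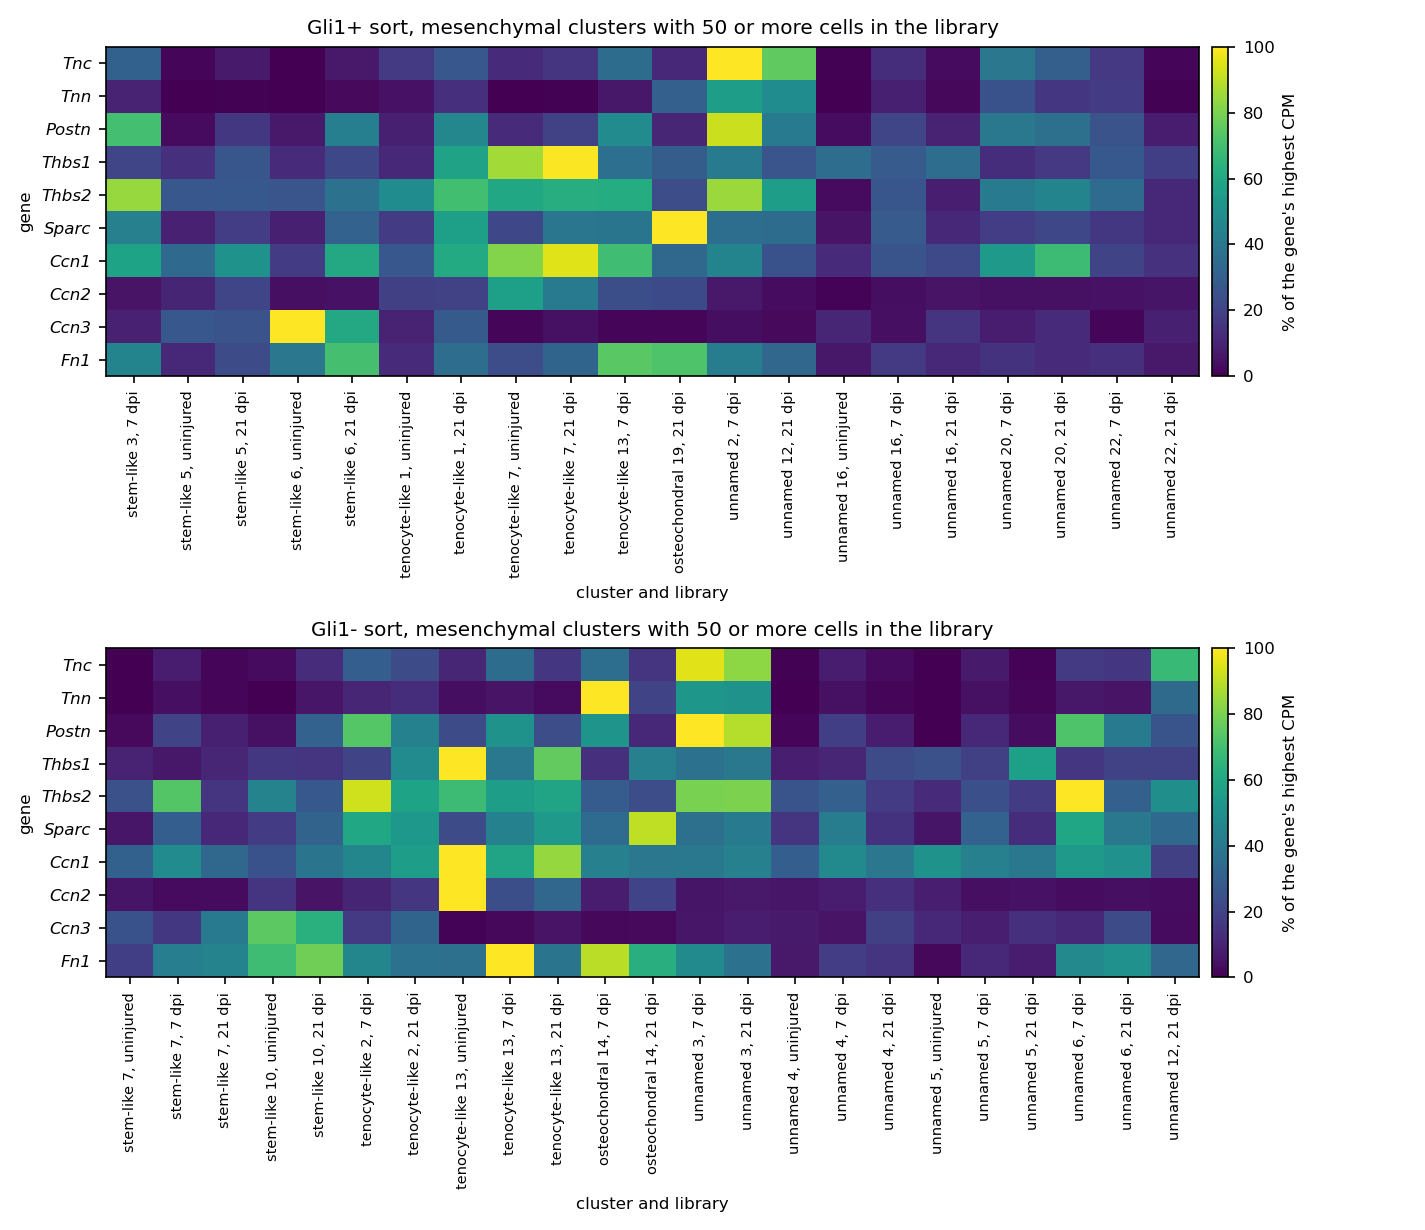
Level of each member in each mesenchymal cluster and library with 50 or more cells, as a percentage of the gene's highest CPM over both sorts; columns are clusters by name and time, the upper panel the Gli1+ and the lower the Gli1- sort. *Tnc* and *Postn* are brightest in unnamed clusters of 7 dpi, *Ccn2* in uninjured tenocyte-like cluster 13 (3163 CPM), *Ccn3* in uninjured stem-like cluster 6 (729 CPM) and *Sparc* in osteochondral cluster 19.

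Clusters with at least 50 cells in both libraries show how far the differences held inside a cluster. In the 4 Gli1- clusters shared by uninjured and 7 dpi tendon, *Tnc* was higher past the fold in 4, with log2 ratios of 1.74 to 5.62, and so were *Postn* (1.13 to 5.61), *Fn1* (1.19 to 2.48), *Sparc* (0.95 to 2.53) and *Tnn* (0.59 to 7.82). In 3 of these clusters, 4, 5 and 7, the 7 dpi levels of *Tnc* and *Tnn* were below those of blood endothelial cells of that library, with *Tnc* at 193 to 203 CPM against 293 CPM and *Tnn* at 42.1 to 46.0 CPM against 58.0 CPM, so their ratios there are not distinguished from free RNA. *Postn* was below the endothelial 563 CPM in cluster 5, at 482 CPM, and above it in clusters 4 and 7, at 768 and 849 CPM. The larger endothelial cluster, with 725 cells, was itself at 796 CPM and the other, with 257 cells, at 398 CPM. *Postn* in clusters 4, 5 and 7 is thus not distinguished from free RNA either. *Fn1* in cluster 5, where its ratio of 2.48 was found, was at 648 CPM beside an endothelial 658 CPM, and so is not distinguished from free RNA there. *Sparc*, at 8163 to 11519 CPM, was above the endothelial 3559 CPM in all 3, and in tenocyte-like cluster 13 *Tnc* and *Postn* were at 938 and 2125 CPM, whereas *Tnn*, at 52.6 CPM, was below the endothelial level there too. *Ccn2* was lower past the fold in 3 of the 4. *Ccn3* was lower past the fold in 1 and higher in 1, with log2 ratios of -0.63 to 1.10. Its higher ratio, in cluster 13, rests on 8 UMIs in uninjured tendon. *Thbs2* was higher past the fold in 2 and lower in 0, at -0.28 to 1.57. *Thbs1* was higher past the fold in none of the 4 and lower in 1. In Gli1+ cells only cluster 16 spanned uninjured and 7 dpi tendon, with 233 and 174 cells of unnamed type, and there *Ccn2* was higher at 7 dpi, at 112 against 34.1 CPM, the opposite of all Gli1+ mesenchymal cells. Blood endothelial cells of these libraries were above both values, at 127 and 67.8 CPM, so this ratio too is not distinguished from free RNA. In cluster 16 at 7 dpi *Tnc*, *Tnn* and *Postn* were at 344, 87.0 and 877 CPM, beside an endothelial 383, 85.0 and 839 CPM. Their Gli1+ ratios of 7 dpi over uninjured are therefore not distinguished from free RNA inside a cluster either. At 21 dpi over uninjured, *Tnc* was higher past the fold in 4 of 5 Gli1+ and 5 of 5 Gli1- clusters. Of the latter, clusters 4, 5 and 7 were at 77.5, 29.7 and 46.9 CPM on day 21, near or below the 71.0 CPM of blood endothelial cells, and Gli1+ cluster 16 was at 82.0 CPM beside an endothelial 67.0 CPM, so the same holds for these 4.

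Across the 43 sums, which share libraries and depth, the log2 levels of *Tnc* and *Postn* (Pearson's r = 0.87), *Tnc* and *Tnn* (0.85) and *Tnn* and *Postn* (0.78) were the most alike of the 45 pairs of members. *Ccn3* had an r below 0 with all 9 other members, from -0.46 with *Tnc* to -0.05 with *Fn1*. Among 9009 genes the 3 most like *Tnc* were *Kif26b* (0.91), *Col24a1* (0.91) and *Nt5dc2* (0.90), and the most like *Postn* was *Cthrc1* (0.89), a collagen triple helix repeat protein of wound fibroblasts. *Sparc* was most like the fibrillar collagen genes *Col1a2* (0.95) and *Col1a1* (0.94), *Ccn2* like *Chad* (0.83), which encodes chondroadherin, and *Thbs2* like *Palld* (0.87), an actin-binding protein. The gene most like *Thbs1* was *Slc5a3* (0.74) and the one most like *Ccn1* was *Ssc5d* (0.77). *Tnn* was most like *Mif* (0.91), *Fn1* like *Uqcc2* (0.85) and *Ccn3* like *Tspan5* (0.84). These values describe the sums and carry no test.

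In single mesenchymal cells, each thinned to 2000 UMIs, *Tnc* had a UMI in 11.7% (10.5 to 13.1) of uninjured Gli1+ cells, 73.0% (72.0 to 74.1) at 7 dpi and 39.4% (38.3 to 40.5) on day 21. Among Gli1- cells, shares were 1.81% (1.48 to 2.20), 62.5% (61.4 to 63.5) and 38.1% (37.0 to 39.2). Unthinned, the Gli1+ shares were 21.0%, 90.0% and 58.2%. Blood endothelial cells, set beside them for free RNA, gave thinned Gli1+ shares of 0.560%, 41.3% and 7.60%, their median depths being 4771.5, 3179 and 5852.5 UMIs, so the shares at 7 dpi are to be read against 41.3%. The Gli1- endothelial shares of *Tnc* were 0.924%, 41.1% and 11.1%, with median depths of 2537, 2221.5 and 3645 UMIs. *Ccn3* was in 19.3%, 6.76% and 22.5% of Gli1+ and in 13.1%, 8.51% and 22.8% of Gli1- mesenchymal cells. Endothelial shares of *Ccn3* were lower in every library, at 0.826% to 4.80% for Gli1+ and 1.68% to 2.89% for Gli1-.

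Mesenchymal cells held most UMIs of every member, from 71.9% for *Tnc* in the uninjured Gli1- library to 99.0% for *Tnn* in the Gli1+ library at 21 dpi. They held 68.8% and 81.5% of all UMIs in these libraries, so the *Tnc* share was near that of all genes. *Thbs1* in the Gli1- sort was near it too, at 94.1% beside 91.6% at 7 dpi and 82.2% beside 78.3% at 21 dpi. To read levels elsewhere against free RNA, each was set as a percentage of the mesenchymal level of its library beside the same percentage for 8 mesenchymal marker genes. Mural cells (pericytes and smooth muscle) had *Tnc* at 68.5, 1345 and 1099 CPM when Gli1+, compared with 87.0, 738 and 1285 CPM when Gli1-. In uninjured Gli1- tendon that was 336% of the mesenchymal level, where the 8 markers were at 3.39 to 10.3%, and at 21 dpi 152%, where they were at 7.28 to 33.7%. The uninjured Gli1- level came from 1 of 2 mural clusters, with 230 CPM among 247 cells of cluster 8 and 4.15 CPM among 647 cells of cluster 11, below the mesenchymal 25.9 CPM. Cluster 8 held 372 of 539 Gli1- mural cells at 7 dpi and 937 of 1032 at 21 dpi, where its *Tnc* was at 813 and 1321 CPM, so the make-up of the class also differed over time. *Thbs1* in mural cells was at 98.3% to 113% of the mesenchymal level in 4 of the 6 libraries, at 42.3% in uninjured Gli1+ and at 78.1% in 7 dpi Gli1- tendon. In uninjured Gli1- tendon it too came mostly from cluster 8, at 495 CPM, with 35.1 CPM in cluster 11 and 180 CPM in mesenchymal cells.

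Blood endothelial cells had *Ccn1* at 280 to 506 CPM in the 6 libraries, 47.4% to 69.1% of the mesenchymal level, above all 8 markers in each library. Their *Tnn*, *Tnc* and *Postn* at 7 dpi were at 16.3% to 24.5% of it, where the markers were at 10.6 to 23.5%, and so near the level of free RNA. Lymphatic endothelial cells of the Gli1- sort had *Ccn1* at 879, 697 and 1141 CPM, above the mesenchymal level at each time. In Schwann cells *Sparc* was at 2803, 5089 and 7711 CPM, and *Tnc* at 5.35 CPM (3 UMIs) in uninjured, 991 CPM at 7 dpi and 765 CPM at 21 dpi, the last being 90.5% of the mesenchymal level, above the markers at 17.9 to 44.5%. The other Schwann levels are given without the markers and are not read against free RNA here. Uninjured epidermal cells of the Gli1+ library had *Tnc* at 105 CPM and *Postn* at 121 CPM, 74.3% and 48.8% of the mesenchymal level, where the markers were at most at 2.96%. Cluster 14 (109 cells) held 468 of the 479 *Tnc* UMIs, at 173 CPM with *Postn* at 174 CPM, whereas cluster 4 (74 cells) had 5.98 and 42.4 CPM.

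**Figure D4:**
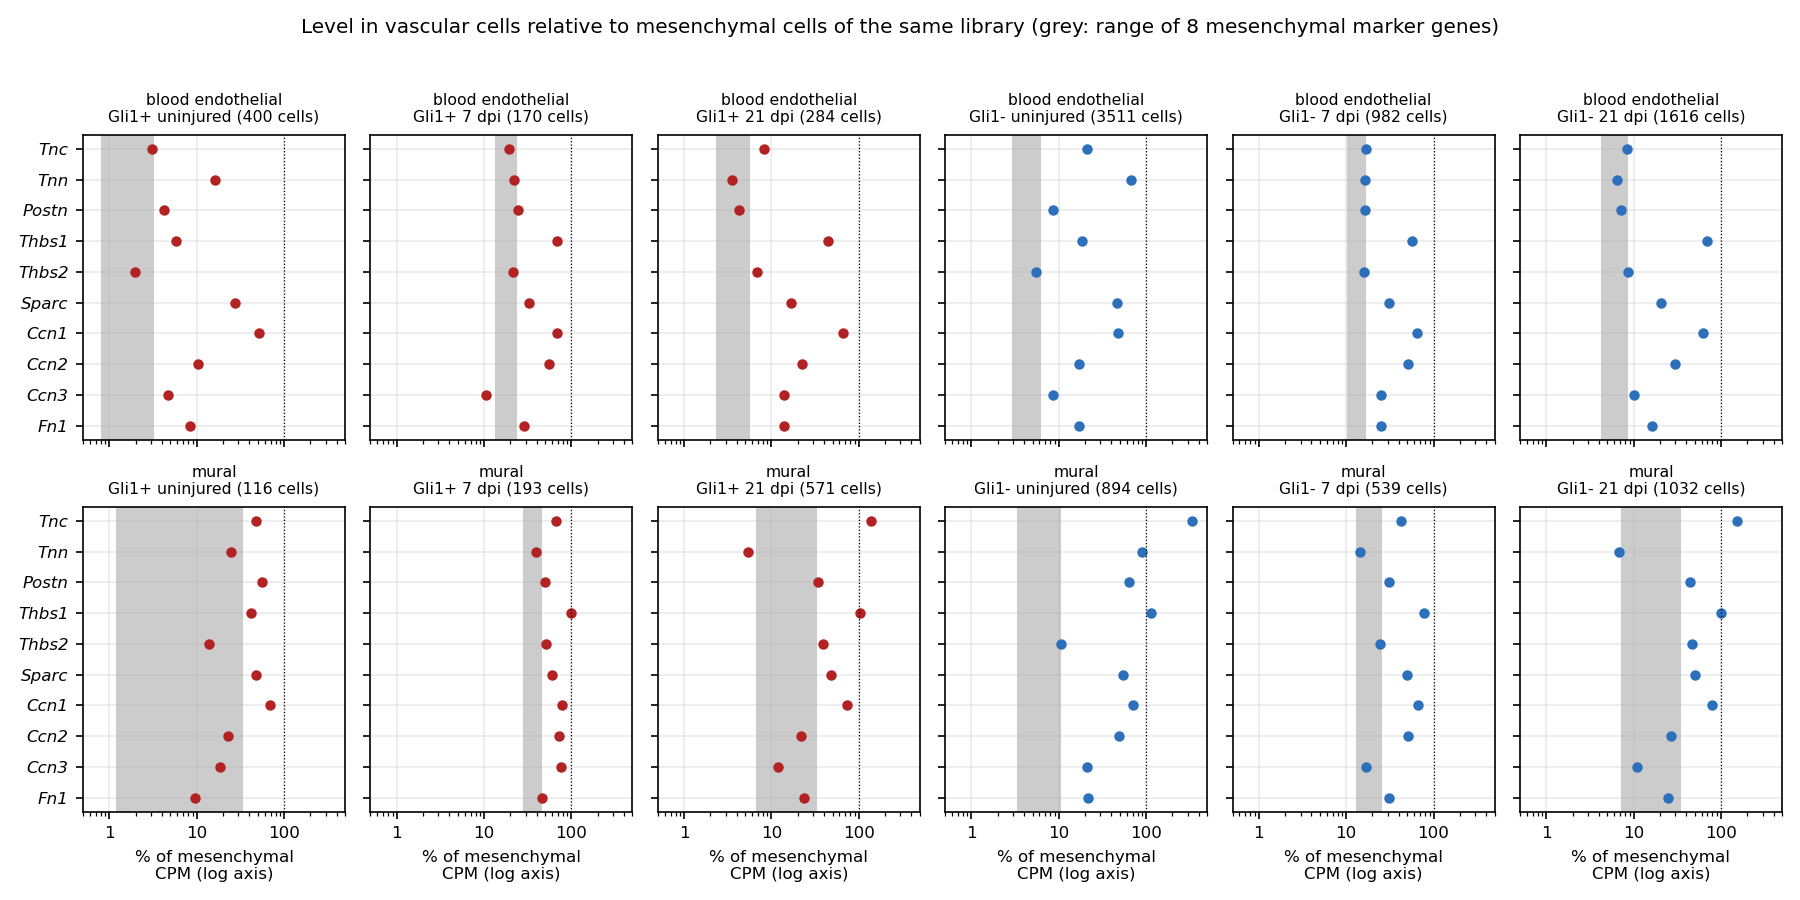
Level of each member in blood endothelial (upper row) and mural cells (lower row) as a percentage of its level in mesenchymal cells of the same library, on a log axis; the grey band is the range of 8 mesenchymal marker genes and the dotted line 100%. *Tnc* in mural cells lies outside the band in all 6 libraries and above 100% in 3, and *Ccn1* and *Thbs1* exceed the band in both cell types.

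Of 24 other matricellular and matrix-associated genes, 23 were measured at 7 dpi over uninjured in Gli1+ cells, with 4 higher and 7 lower past the fold, near the 22.1% and 33.3% of all genes (median -0.08, beside -0.18 for all genes, both above 0 with TMM factors), and 22 in Gli1- cells, with 13 higher and 6 lower, beside 23.5% and 27.1% of all genes (median 1.03, beside -0.08). *Cthrc1* had the highest ratio, at 912 against 30.03 CPM in Gli1+ and 731 against 11.0 CPM in Gli1- cells, followed by *Ccn4*, at 134 against 23.6 CPM and 122 against 6.24 CPM. *Spock2*, a testican, was at 4.07 against 69.0 CPM and 5.37 against 41.4 CPM, *Tnxb*, a tenascin of resting connective tissue, at 75.7 against 651 CPM in Gli1+ cells, and *Sparcl1*, the close relative of *Sparc*, at 141 against 922 CPM in Gli1- cells. At 21 dpi *Spp1* (osteopontin) was at 1375 against 231 CPM in Gli1+ and 1529 against 37.5 CPM in Gli1- cells. At 21 dpi over uninjured 9 were higher and 6 lower of 22 in Gli1+ cells, beside 14.5% and 36.3% of all genes, and 13 and 6 of 22 in Gli1- cells, beside 20.9% and 28.0%.

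Of 26 receptors of these proteins, 2 were higher and 13 lower at 7 dpi over uninjured in Gli1+ cells (median -0.59) and 3 higher and 11 lower in Gli1- cells (median -0.42), and both medians stay below 0 with TMM factors. Genes overall leaned the same way, with 33.3% lower and 22.1% higher in Gli1+ and 27.1% and 23.5% in Gli1- cells. The 2 were *Sdc1* (syndecan-1), at 61.6 against 20.2 CPM, and *Itgav*, the αv integrin that binds periostin, fibronectin and CCN proteins, at 223 against 129 CPM. *Itga8* was at 4.91 against 30.8 CPM and *Itga2* at 5.65 against 27.8 CPM in Gli1+ cells, and *Cd36*, a thrombospondin receptor, at 7.43 against 55.4 CPM in Gli1- cells. At 21 dpi over uninjured *Sdc1* was highest again, at 93.1 and 98.2 CPM, and 12 receptors in Gli1+ and 10 in Gli1- cells were lower, where 36.3% and 28.0% of all genes were.

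Of 30 genes that answer TGF-β and YAP, TAZ or SRF, as *Ccn2* does, 11 were higher and 7 lower at 7 dpi over uninjured in Gli1+ cells (median 0.26), where 22.1% and 33.3% of all genes were. In Gli1- cells 13 were higher and 6 lower (median 0.26), where 23.5% and 27.1% of all genes were. Among the highest ratios were those of *Acta2*, at 683 against 25.0 CPM in Gli1+ and 506 against 80.2 CPM in Gli1- cells, *Cnn1*, at 12.4 against 0.128 CPM (3 UMIs) in Gli1+, and *Tagln*, at 341 against 38.5 CPM in Gli1- cells. *Axl* and *Tgfbr1* were lowest, at 92.7 against 383 CPM and 48.5 against 175 CPM in Gli1+ cells. At 21 dpi over uninjured 7 were higher and 7 lower of 30 in Gli1+ cells, beside 14.5% and 36.3% of all genes, and 11 and 5 of 29 in Gli1- cells, beside 20.9% and 28.0%.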

How the data were processed

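Single cells were profiled with 3′ chemistry in 6 libraries, each a sort at a time point. The deposited values are raw counts of UMIs per gene and cell, made by the authors by alignment to mm10; the submitters' processing notes name Cell Ranger 3.1.0 and STAR, whereas the matrix headers name Cell Ranger 9.0.0, and the annotation release is not given in the sources used here. Following the study's methods, cells with fewer than 200 genes or 1000 UMIs, a log10 genes per UMI below 0.7, or above 5% mitochondrial or hemoglobin UMIs were left out, then likely doublets. Clustering took the 3 libraries of a sort jointly (scanpy 1.11.5, 2000 variable genes without members and markers, 30 components, Leiden resolution 0.5). Clusters were named from fixed markers. UMIs were summed per library and class and given as CPM with exact 95% Poisson intervals, and ratios with binomial ones. With 1 library per condition no test was made; a ratio past 0.58 on the log2 scale counted as higher or lower. TMM factors came from edgeR 4.0.16. Calculations were tested on simulated data. All 10 members are named, and from each list of related genes those with the highest and lowest ratios. Members and lists were chosen with earlier results of these data known, and the early response genes after these files were seen.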

Additional observations from a re-analysis of the deposited data

Results flagged for a closer look

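For *Ccn2* and *Ccn3* the sorts went in opposite directions at 21 dpi when each was set against the uninjured library of its own sort. The log2 ratio of 21 dpi over uninjured for *Ccn2* was -0.44 in Gli1+ and 0.24 in Gli1- mesenchymal cells, and for *Ccn3* it was -0.11 in Gli1+ and 0.74 in Gli1- cells. With 1 library per condition this difference between sorts was not tested. With TMM factors all 4 ratios were above 0, and the levels at 21 dpi lay close together, at 477 and 374 CPM for *Ccn2* and 188 and 182 CPM for *Ccn3*. The Gli1+ ratios kept their sign in 11 of 15 alternatives for *Ccn2* and in 9 of 15 for *Ccn3*, and over all kept cells they were 0.69 and 1.02. Within clusters shared by both libraries the *Ccn2* contrast was turned, with ratios above 0 in 4 of 5 Gli1+ and below 0 in 4 of 5 Gli1- clusters, and medians over clusters of 0.24 and -0.90. *Ccn3* was there higher past the fold in 2 and lower in 1 of 5 Gli1+ clusters, and higher in 3 and lower in 0 of 5 Gli1- clusters. With the uninjured baselines of the sorts exchanged the directions also swapped. The Gli1+ levels at 21 dpi were then set against 318 CPM for *Ccn2* and 109 CPM for *Ccn3*, and the Gli1- levels against 646 and 203 CPM.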

How the results depend on the processing

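No paired analysis was possible because each group is 1 library. Of 49 member ratios past the fold, 691 values under the alternatives held 681 with the same sign, and 661 were still past the fold in that direction. Those of opposite sign were as follows. Within clusters shared by both libraries, *Ccn2* was at 1.72 for Gli1+ at 7 dpi over uninjured (1 cluster), *Thbs1* at -0.46 for Gli1- at 7 dpi and *Thbs2* at -0.59 for Gli1- at 21 dpi. Against the uninjured library of the other sort, *Thbs1* was at -0.21 (Gli1-, 7 dpi) and *Ccn3* at -0.15 (Gli1-, 21 dpi). Both of these alternatives were chosen after seeing the data. A gate on marker UMIs, which left 195 of the 9250 kept Gli1+ cells at 7 dpi, gave *Tnn* 0.19 at 21 over 7 dpi. This gate drops cells with more than 1 UMI of markers of other types. One of these markers, *Krt14*, was at 686 CPM in the mesenchymal cells of that library. Over all kept cells, the uninjured ratios between sorts were -0.10 for *Tnn*, -0.14 for *Thbs1*, -0.0595 for *Ccn3* and -0.20 for *Fn1*.

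Counts of members past the fold that moved by over 1.5 times were as follows. With all kept cells, which in the uninjured Gli1+ library are 53.5% immune, 1 in place of 2 was lower at 7 dpi in either sort (38.0% of all genes in Gli1+ and 34.0% in Gli1-). In Gli1+ at 21 dpi 10 in place of 6 were higher (18.9% of all genes). Between uninjured sorts 1 in place of 7 was higher (27.8%) and 1 in place of 0 lower (21.8%), and between sorts at 7 dpi 1 in place of 0 was lower (8.82%). Against the other sort's uninjured library, 1 in place of 2 was lower in Gli1+ at 7 dpi, and in Gli1- at 21 dpi 5 in place of 8 were higher and 1 in place of 0 lower. Smaller moves included 9 in place of 6 higher in Gli1+ at 21 dpi against that library and 8 in place of 6 higher in Gli1+ at 7 dpi with all kept cells (22.7% of all genes). Within shared clusters, 1 in place of 2 was lower at 7 dpi in either sort, 2 in place of 0 were lower in Gli1- at 21 dpi, and in Gli1+ at 21 over 7 dpi 1 in place of 2 was higher and 5 in place of 3 lower. The marker gate gave 0 in place of 3 lower in Gli1+ at 21 over 7 dpi, and 1 higher and 3 lower in place of 0 between sorts at 7 dpi. A log2 fold of 1 gave 0 in place of 2 lower in Gli1- at 7 dpi and 3 in place of 7 higher between uninjured sorts. All deposited barcodes gave 1 in place of 2 lower in Gli1- at 7 dpi. TMM factors (4.62% of all genes lower) and male-marked cells each gave 1 in place of 0 lower between sorts at 7 dpi, and female-marked cells 1 in place of 0 lower in Gli1+ at 21 dpi. The cause of these moves was not tested. Where no share of all genes is given, a count is not to be read as a result about the members. Cells that cannot be traced to single mice, 1 library per condition and the unequal sexes limit every comparison.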
